A study of Mus musculus with 12 samples.

Results

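The translation initiation and elongation factors are the proteins, named eIF and eEF, that bring an mRNA, the ribosome and the aminoacyl-tRNAs together. Their genes were taken by name, as every symbol in the deposited table that begins with Eif1 to Eif6 or with Eef1 or Eef2, without the eIF2 kinases (Eif2ak genes). The rule finds 68 of 25239 genes, and 62 of these 68 passed the filter on low counts. They were followed in SCA1-positive fibroblasts sorted from the back skin of wild-type male C57BL/6 mice aged 8 weeks. The 4 groups were skin without a wound (NW) and skin with full-thickness punch wounds, 4 mm wide, collected 16 h, 1.5 d or 3 d after wounding. Each group had 3 mice and so 3 libraries. All groups shared the liberase digestion and the sort for live cells with SCA1 and without CD45 or CD31, so that fibroblasts lacking SCA1 were outside the sample. P-values measure the spread between these libraries, in which differences between mice and between library preparations are not separated.

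Translation begins when eIF2, loaded with GTP and the initiator tRNA, joins the small ribosomal subunit together with eIF1, eIF1A, eIF5 and the large scaffold eIF3. The cap complex eIF4F, made of the cap-binding protein eIF4E, the helicase eIF4A and the scaffold eIF4G, recruits this subunit to the mRNA, and the 4E-binding proteins compete with eIF4G for eIF4E. The exchange factor eIF2B reloads eIF2 with GTP and is the step that phosphorylation of eIF2 inhibits. During elongation eEF1A delivers aminoacyl-tRNA, the eEF1B complex recharges eEF1A, eEF2 moves the ribosome on, and eIF5A helps at sequences where the ribosome stalls. Fibroblasts of a healing wound are known for secreting large amounts of matrix protein.

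Promoter windows are shown for the 3 classical eIF4F genes, whose mRNAs were compared below, and for the eIF3 subunit gene with the largest rise at 16 h. Each is the run of 250 bases before an annotated start from the RefSeq table (build GRCm38.p6, which is mm10), on the gene's own strand, with the E-box CACGTG in capitals. For a gene with more than 1 window, which here was only Eif4e, the first window holding CACGTG was taken. The Eif4e window was thus chosen for these letters. Eif4e is at chr3:138527018-138527267 (plus strand, before the second of its 2 annotated starts and so inside the longer gene model), Eif4a1 at chr11:69672424-69672673 (minus strand), Eif4g1 at chr16:20672477-20672726 (plus strand) and Eif3b at chr5:140419055-140419304 (plus strand).
Eif4e: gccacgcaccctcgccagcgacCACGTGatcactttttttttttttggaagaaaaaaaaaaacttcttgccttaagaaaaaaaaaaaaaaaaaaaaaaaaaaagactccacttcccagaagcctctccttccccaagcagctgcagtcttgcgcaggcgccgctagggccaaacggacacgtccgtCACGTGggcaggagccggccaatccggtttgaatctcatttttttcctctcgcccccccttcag
Eif4a1: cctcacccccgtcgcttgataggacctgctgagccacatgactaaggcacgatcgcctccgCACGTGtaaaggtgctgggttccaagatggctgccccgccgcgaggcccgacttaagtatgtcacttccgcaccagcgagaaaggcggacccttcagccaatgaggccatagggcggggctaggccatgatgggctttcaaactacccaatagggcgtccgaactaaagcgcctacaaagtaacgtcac
Eif4g1: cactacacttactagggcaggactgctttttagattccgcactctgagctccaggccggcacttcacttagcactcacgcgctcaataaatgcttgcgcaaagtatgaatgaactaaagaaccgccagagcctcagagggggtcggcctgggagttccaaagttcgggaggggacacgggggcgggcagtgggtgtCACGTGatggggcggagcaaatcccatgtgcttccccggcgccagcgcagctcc
Eif3b: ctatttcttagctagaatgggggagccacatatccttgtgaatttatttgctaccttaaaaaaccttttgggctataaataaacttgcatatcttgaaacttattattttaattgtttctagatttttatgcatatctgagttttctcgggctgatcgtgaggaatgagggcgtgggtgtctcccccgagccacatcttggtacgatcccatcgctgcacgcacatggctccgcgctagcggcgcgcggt
The 6 letters CACGTG, which read the same on both strands and are bound by MYC and related factors, stood in at least 1 of the 300-base windows (250 before to 50 after the start) of 15 of the 52 members with an entry. That is 28.8% of these members, against 8.09% of the 27025 symbols in the table. These symbols were not limited to genes that passed the filter on low counts, for which no share was taken. Of 13 members with an entry that rose at 16 h, 4 held the letters, and of 35 tested members with an entry that did not rise, 10 held them. The letters TGATGCAA or TGATGAAA, searched on both strands and bound by ATF4-type dimers, were in windows of Eif2s3x and Eef2k, 3.85% of members against 2.16% of symbols. A C at the annotated start followed by at least 4 bases that are each C or T, as in mRNAs with a terminal oligopyrimidine tract, was found for Eif2s3x, Eif3f and Eif2c5, 5.77% of members against 3.01% of symbols. These are matches of letters in a window and say nothing of a factor's binding. No entry was matched for Eif1a, Eif2b3, Eif3e, Eif3h, Eif3i, Eif3j2, Eif4e1b, Eif4e3, Eif4ebp1, Eif4ebp3, Eif4g2, Eif6, Eef1akmt1, Eef1akmt3, Eef1d or Eef1g.

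The 12 libraries held 26389453 to 43493475 counted fragments, so that 3 counts stood for 0.069 to 0.114 CPM (counts scaled to a common library total), and library-to-library correlations of log2 CPM within groups were 0.916 to 0.956. Genes of the 18-gene keratinocyte list, all detected, took 1.97 to 4.10% of counts in NW and 0.857 to 1.35% at 16 h. They took 0.412 to 0.737% at 1.5 d and 0.0838 to 1.35% at 3 d. Fibroblast marker genes took 8.76 to 17.6% of counts in NW, 4.27 to 10.2% at 16 h, 8.24 to 11.1% at 1.5 d and 12.2 to 20.3% at 3 d. Their mean share of 14.1, 6.57, 9.37 and 16.7% was lowest at 16 h, when the members' own mean share was highest (1.09, 1.65, 1.32 and 1.08%), and the part of this in the results was not tested. Leukocyte markers took at most 0.0100% and endothelial markers at most 0.00106%, with Cd3e at 0 throughout. The ribosomal transcript Rn45s took 0.523% ± 0.0329 of counts in NW and 1.28% ± 0.723 at 16 h (SD, n = 3). In such bulk samples, fewer cells of a type and less RNA per cell cannot be told apart.

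The members also divided the libraries by gene length, and 1 library in each group stood apart. These were replicate 2 of NW, replicate 3 at 16 h, replicate 1 at 1.5 d and replicate 3 at 3 d. Of the 27 tested members with under 2 kb of exon, 25 were highest in NW replicate 2 among the NW libraries, and 24 were highest in the named library of each wound group. Of the 13 members with 4 kb or more, 5, 5, 7 and 2 were highest there. The same libraries held the highest value for 61.3, 61.5, 67.5 and 63.1% of the 4120 other genes under 2 kb, and for 18.9, 20.7, 20.4 and 15.2% of the 4877 other genes of 4 kb or more. Short members include Eef1a1, the smaller eIF3 subunits (Eif3e to Eif3i, Eif3k and Eif3m) and Eif4ebp1. The part of fragment length or RNA quality in this was not tested. Counts of calls are given below also without these 4 libraries and with a length score as a covariate (the mean log2 CPM of the other genes under 2 kb less that of those of 4 kb or more, per library), both chosen after the data were seen.

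**Figure D1:**
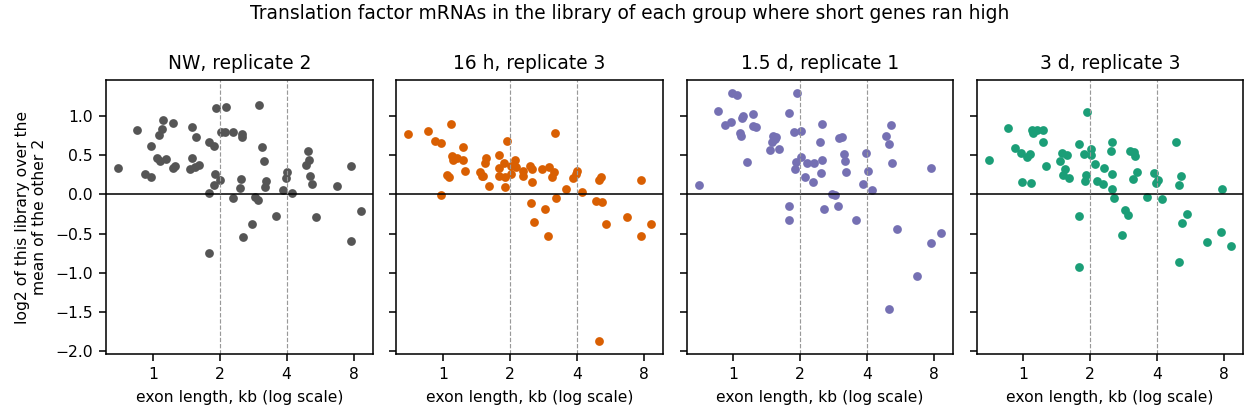
Each point is 1 tested member (Eef1a2, at or near 0 counts, is left out), with its exon length in kb on a log axis and, on the y axis, the log2 of its level in the named library over the mean of the other 2 libraries of that group (0.5 CPM added to each). Dashed lines mark 2 and 4 kb. Members under 2 kb lie mostly above 0, with medians, from left to right, of 0.45, 0.40, 0.78 and 0.51, and members of 4 kb or more have medians of 0.14, -0.09, 0.06 and -0.25.

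Many initiation factor mRNAs rose in the wound fibroblasts at 16 h and 1.5 d, and few fell. In edgeR's quasi-likelihood test, with Benjamini-Hochberg adjustment across the 14901 tested genes and a call at an adjusted p under 0.05, 18 of 62 members rose and 1 fell at 16 h against NW. This is 29.0% rising, where 13.5% of all genes tested rose and 11.2% fell. At 1.5 d 18 rose and 1 fell, beside 13.7 and 10.8% of all genes. At 3 d 8 rose and 2 fell, which is 12.9% rising beside 12% of all genes (9.15% fell), a share near the background. The median log2 change of the 62 members was 0.64 at 16 h, 0.33 at 1.5 d and 0.07 at 3 d, and that of all genes was -0.04, 0.01 and 0.00. With counts scaled to library totals alone the median of all genes at 3 d moved to -0.11 and that of the members to -0.05, so the sign of the 3 d median changes with the scaling. It also changes with single libraries, since leaving out 1 at a time took it from -0.02 (without 3 d replicate 3) to 0.20 (without NW replicate 2), with 0.16 without 3 d replicate 2, 0.05 without NW replicate 1 or 3 d replicate 1 and 0.01 without NW replicate 3. The 1.5 d median was 0.15 without 1.5 d replicate 1 and 0.53 without NW replicate 2. All 3 comparisons share the NW libraries.

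At 16 h every library was above every NW library for 33 of the 62 members, while 20.4% of all genes showed such a separation. The mean was highest at 16 h for 35 members, at 1.5 d for 15, in NW for 10 and at 3 d for 2. Together the members took 1.09% ± 0.239 of all counts in NW and 1.65% ± 0.236 at 16 h (SD, n = 3). Their share was 1.32% ± 0.202 at 1.5 d and 1.08% ± 0.249 at 3 d. The F test for any difference among the 4 groups called 21 members, or 33.9%, beside 29.7% of all genes.

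Without the 4 libraries that stood apart, 28 members were called at 16 h (26 rose), 16 at 1.5 d (13 rose) and 10 at 3 d. Of all genes 21.2, 18.5 and 16.9% were called, so that the 3 d count is no higher than the background. At 1.5 d this fit lost 7 of the 19 members and added Eif1, Eif5, Eif4g2 and Eif5a. The 7 lost were Eif2s1, Eif2b1, Eif3d, Eif4e, Eif4enif1, Eef1akmt4 and Eef1aknmt. At 3 d it lost Eif3l and Eif4enif1 and added Eef1d and Eef1g. With the length score as a covariate the members called were 41 (39 rose), 29 and 20, beside 31.8, 33.0 and 25.6% of all genes. All 19 members called at 16 h were called again with this covariate. With the keratinocyte share as a covariate, which itself differed between NW and the wounds, 9 members were called at 16 h and 0 at 1.5 d and 3 d. The genes called among all 14901 also became fewer under it, from 3687, 3647 and 3147 to 1868, 600 and 526. The median log2 changes of the members were then 0.64, 0.39 and 0.10, beside 0.04, 0.11 and 0.10 for all genes. Leaving out NW replicate 3 took the members called to 13 at 16 h, 12 at 1.5 d, 3 at 3 d and 8 for any difference. Among the 15397 genes tested there, 2835, 2690, 2300 and 3348 were called. Leaving out NW replicate 1 took the members called to 17, 11, 6 and 12, beside 3178, 3156, 2768 and 3736 of 15485 genes. In both fits the members' share at 3 d and for any difference was below that of all genes. Without NW replicate 1 the members' share at 1.5 d was below it too. Without 1.5 d replicate 1, 12 members were called at 1.5 d, beside 2977 of 15504 genes, a share near the background. At 3 d the calls were 2 without 3 d replicate 1, 5 without 3 d replicate 3 and 5 without 16 h replicate 2. Among all genes they were 1826 of 15506, 2709 of 15466 and 2791 of 15506. Leaving out 16 h replicate 2 also took the members called for any difference to 10, beside 3403 genes. In each of these the members' share was below that of all genes. The part of keratinocyte RNA in the changes was not tested further.

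**Figure D2:**
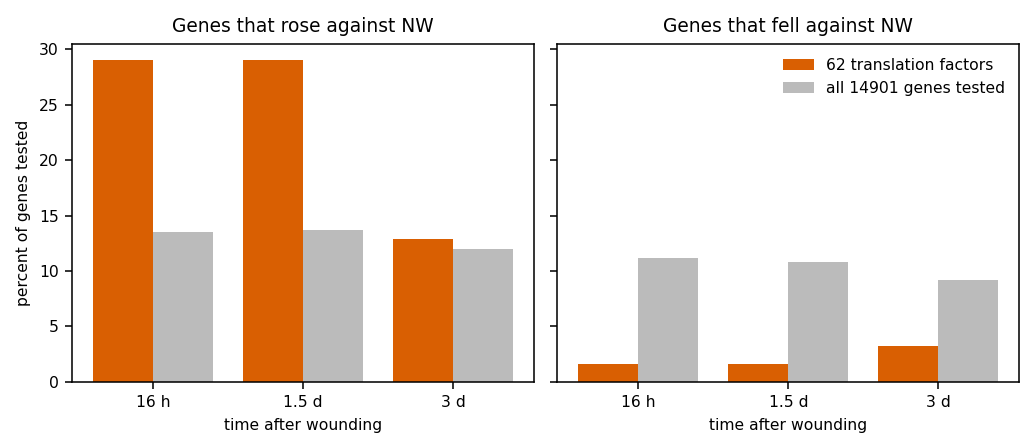
Bars give the percent of genes that rose (left) or fell (right) against NW at each time, for the 62 tested translation factors and for all 14901 genes tested. The orange bars for rising members stand at 29.0% at 16 h and 1.5 d and at 12.9% at 3 d.

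**Figure D3:**
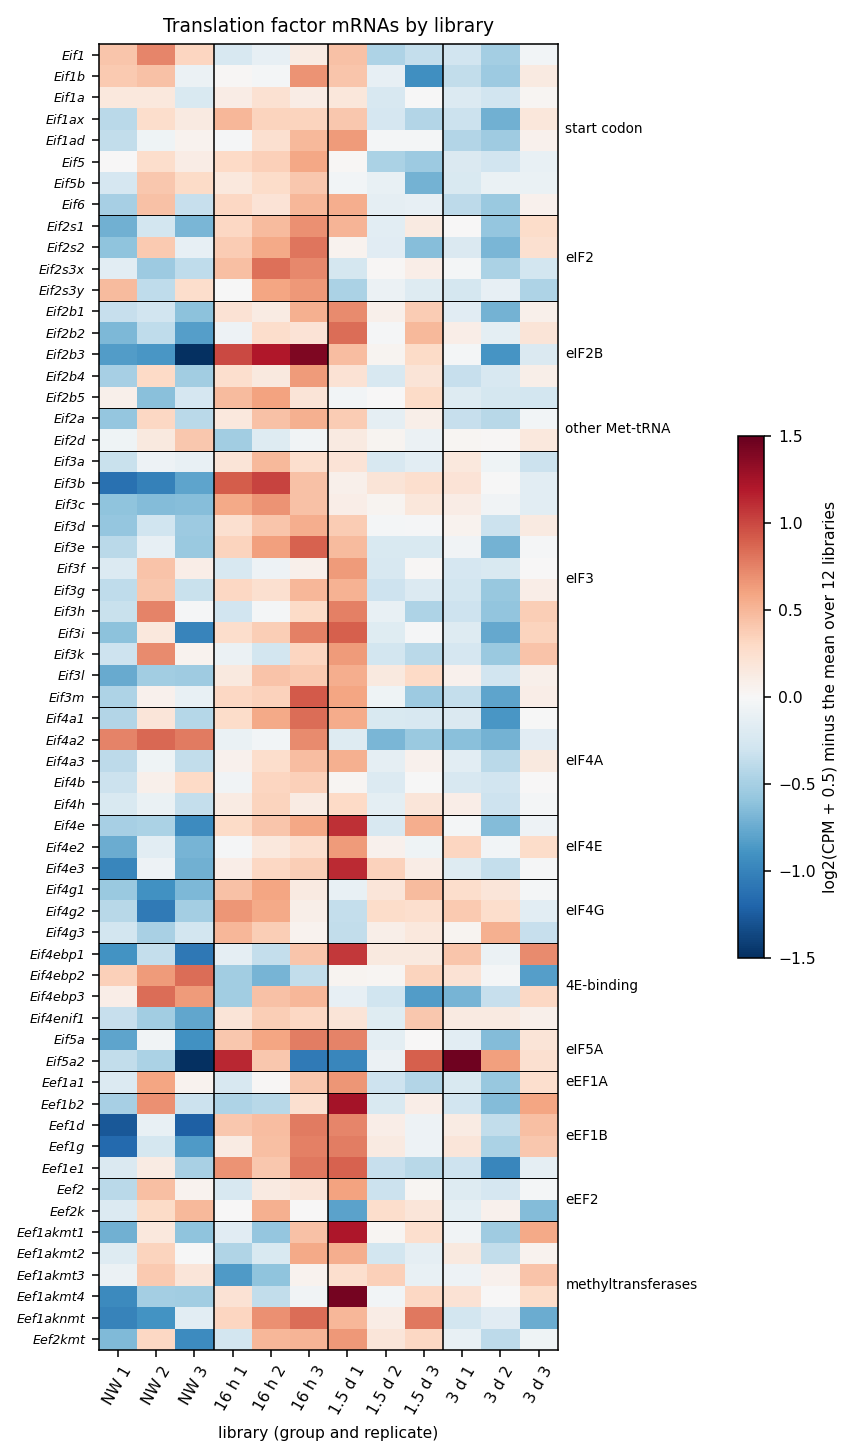
Rows are 61 tested members grouped by role (Eef1a2 is left out) and columns the 12 libraries. Colour gives log2(CPM + 0.5) less the row's mean, red for higher and blue for lower. Most eIF2, eIF2B, eIF3 and eIF4G rows are red in the 16 h columns, while Eif3f, Eif3h and Eif3k are slightly below their row means in the columns of 16 h replicates 1 and 2, and the first 1.5 d column is red for most short genes.

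The eIF2 and eIF2B genes encode the carrier of the initiator tRNA and its exchange factor. Of these 9 members 5 rose at 16 h, where 13.5% of all genes did. The largest rise of any member was that of Eif2b3 (chromosome 4, 117019402 to 117086852), the gamma subunit of eIF2B and part of its catalytic core. It stood at 16.9, 16.5 and 10.2 CPM in the NW libraries, 61.7, 71.2 and 81.7 at 16 h, 42.7, 31.6 and 37.7 at 1.5 d, and 30.1, 16.4 and 26.4 at 3 d. All 16 h and 1.5 d libraries were above all NW libraries, and 1 library at 3 d was back at the NW level. The log2 change was 2.30 at 16 h (SE 0.28, adjusted p 0.000161), a 4.92-fold difference, and 1.36 at 1.5 d (SE 0.28, adjusted p 0.00375), while 0.74 at 3 d did not pass (adjusted p 0.0716).

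Among the other eIF2B subunits, Eif2b5, the catalytic epsilon subunit, rose at 16 h by a log2 change of 0.68 (adjusted p 0.0309). Eif2b2, the beta subunit, stood at 25.5, 31.4 and 22.9 CPM in NW, 38.8, 49.3 and 47.3 at 16 h, 73.5, 40.4 and 57.7 at 1.5 d, and 43.9, 37.0 and 47.0 at 3 d. All its wound libraries were above NW. It rose by 0.76 at 16 h and 1.10 at 1.5 d (adjusted p 0.0346 and 0.00573). Eif2b1, the alpha subunit that senses phosphorylated eIF2, rose by 0.83 at 1.5 d (adjusted p 0.0291), and its 0.72 at 16 h had an adjusted p of 0.0517. Eif2b4, the delta subunit, was not called at any time, with 0.56, 0.26 and 0.04. The 5 eIF2B genes summed to 173 ± 17.5 CPM in NW and 324 ± 17.1 at 16 h (SD, n = 3).

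Eif2s1, the alpha subunit of eIF2 and the target of the eIF2 kinases, stood at 86.4, 118 and 89.0 CPM in NW and 178, 199 and 230 at 16 h. It was 204, 128 and 158 at 1.5 d and 144, 95.6 and 174 at 3 d, so that the 3 d libraries overlapped NW. It rose by a log2 change of 1.05 at 16 h (SE 0.25, adjusted p 0.0095) and 0.74 at 1.5 d (adjusted p 0.0475). Eif2s2, the beta subunit, stood at 77.5, 154 and 108 CPM in NW, 153, 175 and 206 at 16 h, 123, 104 and 75.7 at 1.5 d, and 101, 73.2 and 139 at 3 d. NW replicate 2 was level with the lowest 16 h library, and the change of 0.65 at 16 h was not called (adjusted p 0.123). The gamma subunit is encoded by the X-linked Eif2s3x and its Y-linked copy Eif2s3y, which are near-identical, so that the split of fragments between them is uncertain. Eif2s3x stood at 13.6, 10.3 and 11.6 CPM in NW, 21.1, 27.4 and 25.5 at 16 h, 12.6, 15.5 and 16.4 at 1.5 d, and 14.9, 10.8 and 12.5 at 3 d. Its 16 h libraries were above all others. It rose by 1.06 at 16 h (adjusted p 0.00817), and Eif2s3y had 0.28 (adjusted p 0.462). Of the factors that deliver initiator tRNA by other routes, Eif2a and Eif2d were not called, with 0.57 and -0.43 at 16 h.

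The eIF3 complex, the largest initiation factor, bridges the small subunit and eIF4G. Of its 12 tested genes 5 rose at 16 h, 4 at 1.5 d and 3 at 3 d, where 13.5, 13.7 and 12% of all genes rose. Eif3b (chromosome 5, 140419305 to 140443358), a core subunit, stood at 233, 251 and 292 CPM in NW, 956, 1029 and 687 at 16 h, 534, 583 and 607 at 1.5 d, and 584, 508 and 454 at 3 d. Every wound library was above every NW library. Its log2 change was 1.78 at 16 h (SE 0.21, adjusted p 0.000107), 1.15 at 1.5 d (adjusted p 0.00165) and 0.99 at 3 d (adjusted p 0.0044).

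Eif3c (chromosome 7, 126546911 to 126566366), a core subunit of the octamer, was even across NW libraries at 188, 182 and 183 CPM. It stood at 426, 457 and 387 at 16 h, 308, 295 and 322 at 1.5 d, and 310, 275 and 255 at 3 d, with no overlap between any wound group and NW. It rose by 1.20 (SE 0.17, adjusted p 0.000347), 0.74 (adjusted p 0.00616) and 0.60 (adjusted p 0.0206). Eif3l rose by 0.93, 0.94 and 0.57 in turn (adjusted p 0.00339, 0.00323 and 0.0467). Eif3d, which can bind the cap of some mRNAs, rose by 0.88 and 0.60 at 16 h and 1.5 d (adjusted p 0.00635 and 0.0406).

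Eif3l stood at 103, 122 and 120.2 CPM in NW, 194, 236 and 229 at 16 h, 255, 194 and 215 at 1.5 d, and 183, 144 and 184 at 3 d, and all its wound libraries were above NW. Eif3e stood at 98.8, 120.1 and 88.8 CPM in NW, 165, 201 and 242 at 16 h, 183, 112 and 112 at 1.5 d, and 126, 80.1 and 129 at 3 d. Its 16 h libraries were above NW and later libraries overlapped it, and it rose by 0.98 at 16 h (adjusted p 0.0158).

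The remaining eIF3 subunits did not pass at any time. Eif3a, the large scaffold subunit, stood at 190.1, 226 and 221 CPM in NW, 274, 335 and 285 at 16 h, 276, 203 and 214 at 1.5 d, and 266, 229 and 192 at 3 d, with all 16 h libraries above NW. It had 0.49 at 16 h (adjusted p 0.0864), Eif3i 0.89 (0.0952), Eif3m 0.71 (0.115) and Eif3g 0.42 (0.304). Eif3f, Eif3h and Eif3k had -0.21, -0.19 and -0.21 at 16 h, and their groups overlapped. Eif3f stood at 78.5, 122 and 97.2 CPM in NW, 76.5, 85.9 and 95.3 at 16 h, 141, 76.8 and 91.8 at 1.5 d, and 76.1, 77.3 and 90.8 at 3 d. Eif3h stood at 66.2, 141 and 82.7 CPM in NW, 68.3, 82.2 and 103 at 16 h, 141, 77.3 and 60.7 at 1.5 d, and 67.3, 55.2 and 109 at 3 d. In every group both were highest in the library named above for short genes. Log2 changes at 16 h ranged from -0.21 to 1.78 among the subunits, and the difference between subunits was not tested. Exon lengths ran from 1068 to 1541 bases for Eif3e to Eif3i, Eif3k and Eif3m, of which only Eif3e rose. They were 1893 bases for Eif3l, 1910 for Eif3d, 2882 for Eif3c and 2966 for Eif3b, which rose, and 5176 for Eif3a, the longest, which was not called.

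**Figure D4:**
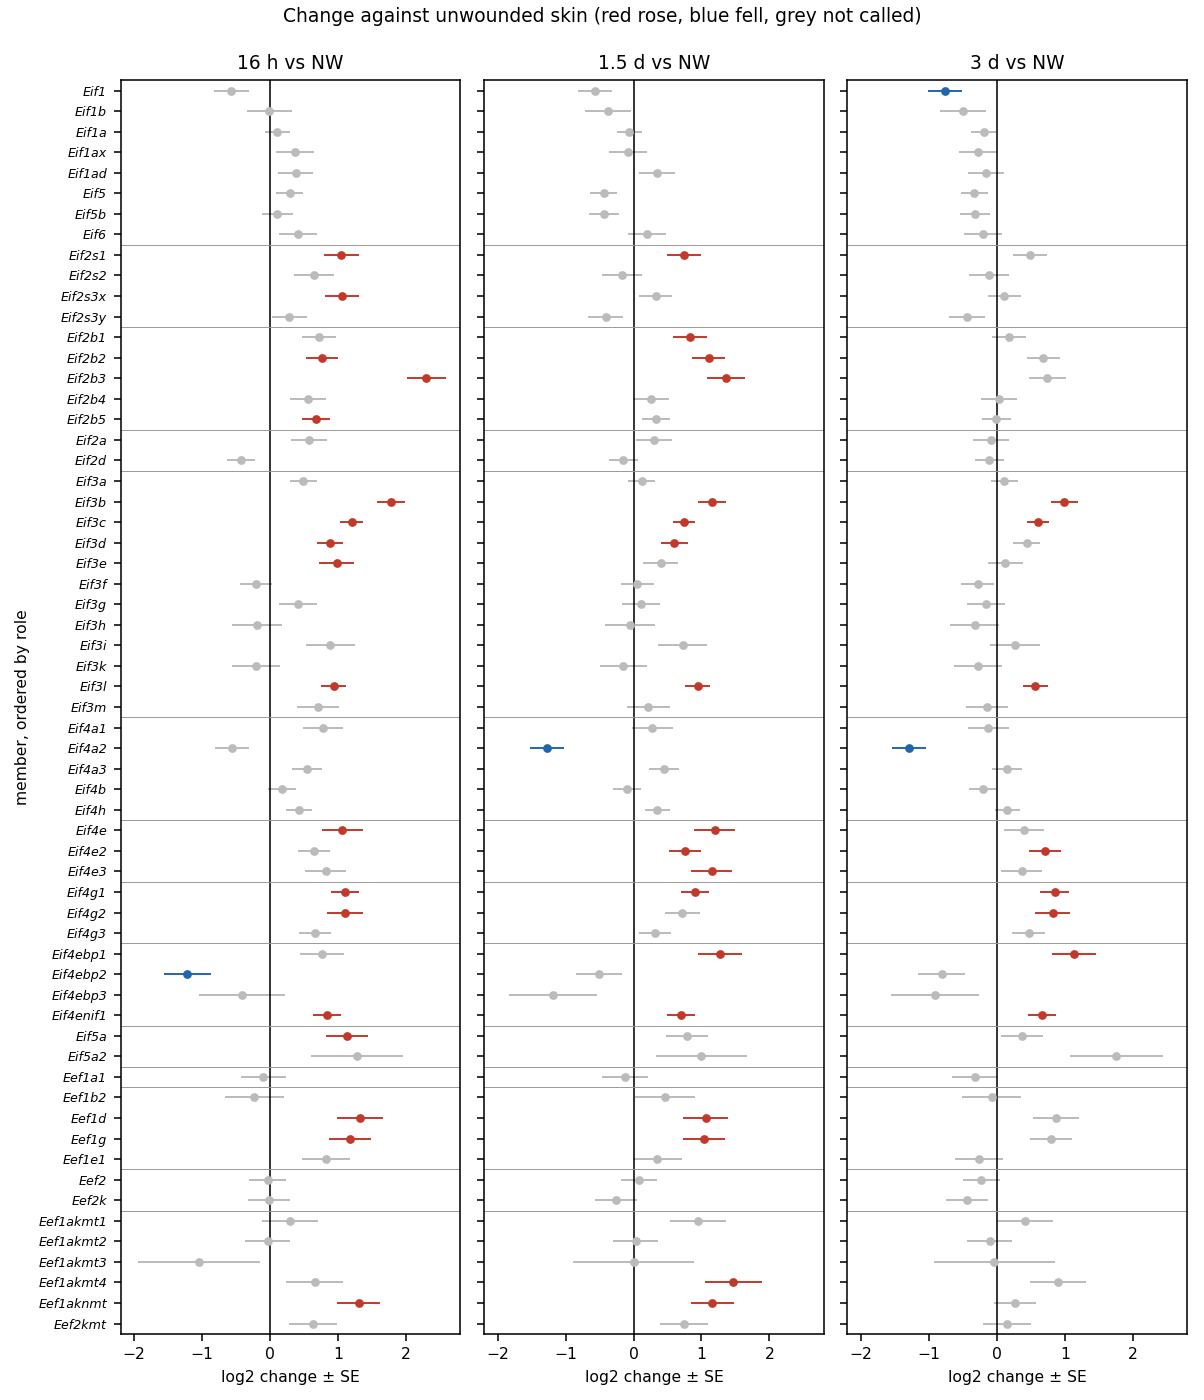
Points give the log2 change of each of 61 tested members against NW at 16 h, 1.5 d and 3 d, and bars 1 SE on each side. Lines divide the roles. Red marks members that rose, blue those that fell and grey those not called at an adjusted p under 0.05. Eif2b3 at 2.30 and Eif3b at 1.78 lie farthest to the right at 16 h, and Eif4a2 lies at -1.27 at 1.5 d and -1.29 at 3 d.

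In the cap complex, 1 of 3 tested cap-binding genes rose at 16 h, 3 at 1.5 d and 1 at 3 d, and 2, 1 and 2 of 3 scaffold genes, where 13.5, 13.7 and 12% of all genes rose. Of 5 tested genes for the eIF4A helicases and their cofactors none rose at any of these times, and Eif4a2 fell at 1.5 d and 3 d. Eif4e (chromosome 3, 138526191 to 138559696), the cap-binding subunit, stood at 148, 151 and 108 CPM in NW, 257, 279 and 313 at 16 h, 448, 177 and 307 at 1.5 d, and 205, 133 and 199 at 3 d. The libraries at 16 h and 1.5 d were all above NW, with a wide spread at 1.5 d, and those at 3 d overlapped NW. It rose by 1.06 at 16 h (SE 0.30, adjusted p 0.0204) and 1.20 at 1.5 d (adjusted p 0.0115), and had 0.40 at 3 d (adjusted p 0.376). Eif4e2, encoding a cap-binding relative known for repressing translation, stood at 72.1, 108 and 74.7 CPM in NW, 119.5, 135 and 144 at 16 h, 189, 127 and 116 at 1.5 d, and 152, 118 and 147 at 3 d. Its wound libraries were all above NW, and it rose by 0.76 at 1.5 d and 0.71 at 3 d (adjusted p 0.0311 and 0.0458). Eif4e3, a further cap-binding relative, stood at 15.4, 29.0 and 18.4 CPM in NW, 33.0, 38.1 and 39.7 at 16 h, 67.4, 39.0 and 33.1 at 1.5 d, and 26.8, 23.8 and 30.3 at 3 d, with the 16 h and 1.5 d libraries above NW. It rose by 1.15 at 1.5 d (adjusted p 0.0146).

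Eif4g1 (chromosome 16, 20672727 to 20692883), the main scaffold, stood at 253, 198 and 233 CPM in NW and 501, 557 and 408 at 16 h. It was 343, 421 and 513 at 1.5 d and 445, 422 and 364 at 3 d, again with every wound library above NW. It rose by 1.10 (SE 0.21, adjusted p 0.00241), 0.90 (adjusted p 0.00726) and 0.85 (adjusted p 0.0117) at the 3 times. Eif4g2, also called DAP5, a scaffold without an eIF4E site, stood at 802, 514 and 754 CPM in NW, 1696, 1596 and 1137 at 16 h, 834, 1295 and 1276 at 1.5 d, and 1405, 1285 and 964 at 3 d. Every wound library was above NW, at 1.5 d by a narrow margin. It rose by 1.10 at 16 h and 0.82 at 3 d (adjusted p 0.00925 and 0.0406), and its 0.72 at 1.5 d had an adjusted p of 0.0615. Eif4g3 had 0.66 at 16 h and did not pass (adjusted p 0.0596).

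The helicase genes Eif4a1 and Eif4a2 encode closely related proteins, of which eIF4A1 is the usual eIF4F subunit. Eif4a1 (chromosome 11, 69666936 to 69672423) stood at 391, 601 and 395 CPM in NW, 642, 786 and 945 at 16 h, 782, 452 and 448 at 1.5 d, and 454, 288 and 528 at 3 d. All 16 h libraries were above NW, but its log2 change of 0.78 (SE 0.30) had an adjusted p of 0.0741. Eif4a2 (chromosome 16, 23107468 to 23114132) stood at 98.9, 107 and 101 CPM in NW, 54.7, 57.1 and 96.3 at 16 h, 51.4, 36.4 and 39.7 at 1.5 d, and 37.9, 35.9 and 52.1 at 3 d. Every wound library was below every NW library, and replicate 3 at 16 h was close to NW. Eif4a2 fell by 1.27 at 1.5 d (SE 0.25, adjusted p 0.00327) and by 1.29 at 3 d (adjusted p 0.00341), and had -0.56 at 16 h (adjusted p 0.117). Of its exon bases 5.02% overlap Rfc4. Per kb of exon and within libraries, the Eif4a1 to Eif4a2 ratio was 6.70, 9.50 and 6.59 in NW, 19.9, 23.3 and 16.6 at 16 h, 25.8, 21.0 and 19.1 at 1.5 d, and 20.4, 13.6 and 17.2 at 3 d, with no overlap between NW and any wound group.

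The exon junction helicase Eif4a3 and the cofactors Eif4b and Eif4h, which stimulate eIF4A, were not called at any time, with 0.55, 0.18 and 0.43 at 16 h. Eif4a3 stood at 104, 131 and 106 CPM in NW, 144, 165 and 189 at 16 h, 198, 125 and 144 at 1.5 d, and 123, 103 and 152 at 3 d. Eif4b stood at 98.8, 130.4 and 153 CPM in NW, 119, 155 and 158 at 16 h, 126, 107 and 123 at 1.5 d, and 105, 101 and 124 at 3 d. Eif4h stood at 269, 294 and 246 CPM in NW, 345, 398 and 345 at 16 h, 389.5, 286 and 358 at 1.5 d, and 338, 254 and 309 at 3 d. The 16 h libraries of Eif4a3 and Eif4h were all above NW, and those of Eif4b overlapped NW.

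The 4E-binding proteins hold eIF4E away from eIF4G when they are unphosphorylated. Of their genes, Eif4ebp1 rose at 1.5 d and 3 d and Eif4ebp2 fell at 16 h, and at no time were both called. Eif4ebp1 (chromosome 8, 27260327 to 27275656) stood at 43.8, 63.9 and 38.8 CPM in NW, 75.0, 64.0 and 110 at 16 h, 172, 90.5 and 90.6 at 1.5 d, and 110, 77.0 and 135 at 3 d. Each wound library was above NW, at 16 h by a narrow margin. It rose by 1.27 at 1.5 d (SE 0.32, adjusted p 0.0124) and 1.13 at 3 d (adjusted p 0.0244), and had 0.76 at 16 h (adjusted p 0.0995).

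Eif4ebp2 (chromosome 10, 61432497 to 61452669) stood at 10.5, 12.8 and 14.8 CPM in NW, 5.44, 4.79 and 6.11 at 16 h, 8.26, 8.20 and 10.3 at 1.5 d, and 9.44, 7.87 and 4.30 at 3 d. All wound libraries were below NW, closest at 1.5 d. It fell by 1.22 at 16 h (SE 0.34, adjusted p 0.0201), and had -0.51 at 1.5 d (adjusted p 0.299) and -0.82 at 3 d (adjusted p 0.106). The F test for any difference did not call Eif4ebp2 (adjusted p 0.061). Eif4ebp3 was scarce, at 2.06, 3.78 and 3.22 CPM in NW, 1.17, 2.74 and 2.88 at 16 h, 1.70, 1.45 and 0.841 at 1.5 d, and 0.977, 1.38 and 2.46 at 3 d, and was not called. The Eif4ebp1 to Eif4ebp2 ratio per kb was 7.63, 9.08 and 4.79 in NW and between 16.1 and 57.1 in the 9 wound libraries. Eif4enif1, which carries eIF4E into the nucleus and P-bodies, stood at 33.0, 29.0 and 24.2 CPM in NW, 48.0, 54.2 and 52.1 at 16 h, 48.1, 36.8 and 55.6 at 1.5 d, and 46.1, 46.1 and 44.3 at 3 d. Every wound library was above NW. It rose by 0.84, 0.70 and 0.66 at the 3 times (adjusted p 0.0103, 0.0246 and 0.0362).

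**Figure D5:**
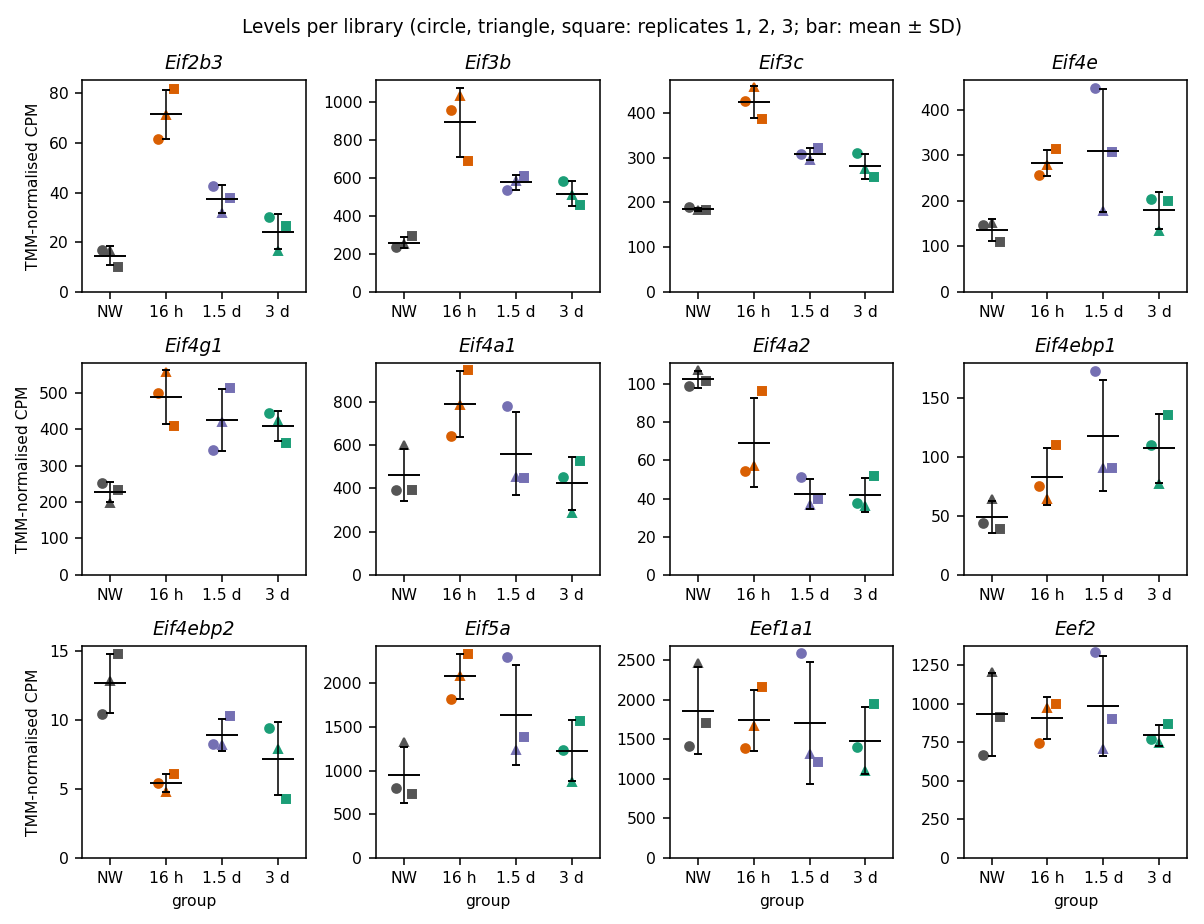
Each panel gives TMM-normalised CPM of 1 member, on an axis from 0, for the 3 libraries of each group (circle, triangle and square for replicates 1, 2 and 3) with the mean ± SD. Eif2b3, Eif3b, Eif3c, Eif4e and Eif4g1 have all 16 h libraries above NW, Eif4a2 and Eif4ebp2 have all wound libraries below NW, and Eef1a1 and Eef2 overlap across all groups.

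Among the 8 genes of scanning, start codon choice and subunit joining, none was called at 16 h or 1.5 d. At an unadjusted p under 0.05 edgeR gave 1 at 16 h and 2 at 1.5 d, beside 5566 and 5489 of 14901 genes. The share of these 8 was thus below that of all genes at both times. Eif1, whose protein guards start codon choice, was the 1 that fell at 3 d. It stood at 766, 955 and 717 CPM in NW, 487, 530 and 624 at 16 h, 782, 416 and 449 at 1.5 d, and 471, 404 and 561 at 3 d. The 16 h and 3 d libraries were all below NW, and 1 library at 1.5 d was not. It fell by 0.76 at 3 d (SE 0.26, adjusted p 0.0492), with -0.57 at both 16 h and 1.5 d (adjusted p 0.121 and 0.125). The F test for any difference did not call Eif1 (adjusted p 0.11). Eif5, the GTPase activator of eIF2, stood at 465, 554 and 498 CPM in NW, 567, 591 and 694 at 16 h, 469, 333 and 316 at 1.5 d, and 398, 380.4 and 429 at 3 d. Its 16 h libraries were the highest. It was called by the test for any difference, with 0.29 at 16 h and -0.44 at 1.5 d against NW.

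Eif1a, Eif1ax, Eif1ad, Eif1b, the subunit-joining factor Eif5b and the anti-association factor Eif6 had between -0.01 and 0.42 at 16 h, and none was called against NW. Eif1a, which opens the small subunit for scanning, stood at 215, 214 and 165 CPM in NW, 207, 225 and 208 at 16 h, 217, 163 and 191 at 1.5 d, and 166, 157 and 196 at 3 d. Eif1ad stood at 25.3, 31.5 and 34.2 CPM in NW, 32.6, 39.1 and 46.2 at 16 h, 51.4, 32.1 and 32.3 at 1.5 d, and 24.1, 22.6 and 34.6 at 3 d. Their groups overlapped NW at each time. Eif5b stood at 69.0, 109 and 101 CPM in NW, 91.8, 99.9 and 109 at 16 h, 80.1, 76.3 and 50.2 at 1.5 d, and 69.8, 76.4 and 76.8 at 3 d. Eif6 stood at 238, 457 and 266 CPM in NW, 417, 389.6 and 475 at 16 h, 490.5, 308 and 309 at 1.5 d, and 256, 229.8 and 351 at 3 d. Both overlapped NW at each time, and 15.9% of the Eif5b exon bases overlap Rev1.

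In elongation, the carrier and the translocase did not pass while part of the exchange complex rose. Eef1a1, the most abundant member in NW, stood at 1416, 2469 and 1703 CPM in NW, 1389, 1662 and 2159 at 16 h, 2592, 1318 and 1207 at 1.5 d, and 1398, 1104 and 1947 at 3 d. The groups overlapped at every time, and the log2 change at 16 h was -0.10 (SE 0.33, adjusted p 0.861). Eef2 stood at 669, 1205 and 916 CPM in NW, 747, 969.9 and 1000.3 at 16 h, 1337, 705 and 903 at 1.5 d, and 771, 741 and 868 at 3 d, again with overlap at every time, and had -0.04 at 16 h (SE 0.27, adjusted p 0.94). Its kinase Eef2k, which inhibits eEF2, stood at 38.3, 54.2 and 62.3 CPM in NW, 44.6, 64.2 and 44.3 at 16 h, 25.1, 53.5 and 50.4 at 1.5 d, and 39.8, 46.2 and 28.0 at 3 d. The groups overlapped, and the change at 16 h was -0.02. With SEs of this size, these values do not show that the levels were alike. Eef1a1 is known for many processed pseudogenes, and fragments that map to several places were not counted, so that its level is uncertain.

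Of the eEF1B complex, Eef1d, the delta exchange subunit, stood at 71.0, 159 and 73.5 CPM in NW, 228, 238 and 297 at 16 h, 286, 184 and 164 at 1.5 d, and 187, 133 and 236 at 3 d. NW replicate 2 was well above the other 2 NW libraries and overlapped 3 d but neither earlier group. Eef1d rose by 1.33 at 16 h (SE 0.34, adjusted p 0.0125) and 1.06 at 1.5 d (adjusted p 0.0346). Eef1g, the gamma subunit, stood at 102, 191 and 127 CPM in NW, 249, 314 and 388 at 16 h, 389.6, 253 and 217 at 1.5 d, and 261, 165 and 303 at 3 d. Its 16 h and 1.5 d libraries were above NW. It rose by 1.18 and 1.03 (adjusted p 0.0152 and 0.0283). Eef1b2, the alpha exchange subunit, stood at 60.5, 138 and 68.3 CPM in NW, 62.0, 64.3 and 101 at 16 h, 203, 73.2 and 91.8 at 1.5 d, and 70.0, 54.2 and 129 at 3 d. Its groups overlapped widely, and it had -0.23 at 16 h (adjusted p 0.743) and was not called. Eef1e1, which belongs to the tRNA synthetase complex, stood at 20.3, 25.9 and 16.8 CPM in NW, 38.3, 31.6 and 41.5 at 16 h, 44.2, 18.5 and 17.7 at 1.5 d, and 19.0, 11.8 and 21.6 at 3 d. The 16 h libraries were above NW, with 0.82 (adjusted p 0.114).

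Eif5a (chromosome 11, 69916712 to 69921958), the hypusine-bearing factor, stood at 799, 1324 and 734 CPM in NW, 1827, 2082 and 2341 at 16 h, 2300, 1240 and 1381 at 1.5 d, and 1238, 873 and 1575 at 3 d. The 16 h libraries were all above NW and the later groups overlapped it. Eif5a rose by 1.13 at 16 h (SE 0.31, adjusted p 0.0188), and had 0.78 at 1.5 d (adjusted p 0.0819). Its relative Eif5a2 was not called, with between 1.29 and 4.27 CPM in NW and up to 16.4 at 3 d. Among 6 tested methyltransferases of elongation factors, Eef1aknmt (METTL13) stood at 6.98, 7.53 and 12.9 CPM in NW, 18.1, 23.6 and 26.1 at 16 h, 20.6, 15.6 and 25.3 at 1.5 d, and 11.8, 12.8 and 8.46 at 3 d. Its 16 h and 1.5 d libraries were above NW. It rose by 1.30 at 16 h and 1.16 at 1.5 d (adjusted p 0.00997 and 0.0174), and was back within the NW range at 3 d. Eef1akmt4 stood at 3.09, 4.41 and 4.35 CPM in NW, 7.57, 4.88 and 6.21 at 16 h, 18.4, 6.28 and 8.15 at 1.5 d, and 7.61, 6.49 and 7.95 at 3 d, with every wound library above NW. It rose by 1.47 at 1.5 d (adjusted p 0.0222), but was not called there without the 4 libraries that stood apart. Of the Eef1akmt4 exon bases 51.2% overlap the Eef1akmt4-ece2 readthrough gene. Eef1akmt1, Eef1akmt2, Eef1akmt3 and Eef2kmt were not called.

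Per kb of exon, which allows levels of different genes to be compared, Eef1a1 led in NW at 1041 ± 304 CPM per kb, before Eif1 at 645 ± 99.6 and Eif5a at 472 ± 161 (SD, n = 3). At 16 h Eif5a stood at 1033 ± 127 and Eef1a1 at 971 ± 218, which do not differ beyond their spread, and Eif1 at 434 ± 55.8. Eif3b had 300.2 ± 60.6 CPM per kb at 16 h, which does not differ beyond its spread from Eef2 at 292 ± 44.7 and Eif6 at 286 ± 29.2. The Eif4g1 to Eif4g3 ratio per kb was 4.62 to 5.07 in NW, 5.90 to 7.17 at 16 h and 6.59 to 7.65 at 1.5 d. At 3 d it was 7.16, 4.84 and 7.70, which overlaps NW.

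Between wound times most members were lower at 3 d than at 16 h, and few passed the test. For 3 d against 16 h 4 members fell and none rose, 6.45% of 62, where 3.67% of all genes fell. These were Eif2b3 (-1.56, SE 0.28, adjusted p 0.00398), Eif2s3x (-0.95, adjusted p 0.03), Eif3b (-0.79, adjusted p 0.028) and Eif3c (-0.60, adjusted p 0.0385). All 3 d libraries were below all 16 h libraries for 31 of 62 members, while 15.5% of all genes showed this. The median log2 change was -0.43, beside -0.02 for all genes, and -0.61 beside -0.19 with counts scaled to library totals. Without the 4 libraries that stood apart 9 members fell, where 3.085% of all genes did. With the length score as a covariate 23 members fell and 1, Eif4ebp1, rose. Under it 8.62% of all genes fell and 9.24% rose. Without 3 d replicate 2, 3 d replicate 3 or 16 h replicate 2, 1 member was called, beside 812, 1039 and 726 genes. Without 3 d replicate 1, 16 h replicate 1 or 16 h replicate 3, 2 were, beside 817, 888 and 940 genes. Without 1.5 d replicate 1, 8 were, beside 1515 of 15504 genes. The main fit called 1420 of 14901 genes.

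For 1.5 d against 16 h edgeR called 0 members and 2.86% of all genes. At an unadjusted p under 0.05 it gave 11 members and 2596 of 14901 genes. DESeq2 called 4 of 61 members and 1192 of 14581 genes, so the members' share was below that of all genes. Limma-voom called 0 members and 420 genes. For 3 d against 1.5 d edgeR called 0 members and 0.141% of all genes. At an unadjusted p under 0.05 it gave 6 members and 1191 of 14901 genes. DESeq2 and limma-voom called 0 members there, beside 200 and 74 genes. The median log2 changes were -0.23 and -0.21. The first was -0.13 without 16 h replicate 3 and -0.14 without 1.5 d replicate 2. The second was -0.03 without 1.5 d replicate 1, with 36 of 62 members lower in place of 53, and -0.10 without 3 d replicate 2. It was -0.34, -0.32 and -0.37 without 1.5 d replicate 2, 1.5 d replicate 3 and 3 d replicate 3.

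Of 65 partner genes in 9 lists, which act on or with these factors, 22 rose and 2 fell at 16 h, 14 rose and 3 fell at 1.5 d, and 10 rose and 3 fell at 3 d. Among all genes 13.5, 13.7 and 12% rose and 11.2, 10.8 and 9.15% fell, so that the count rising at 3 d is near the background. These lists, like the members, were chosen with earlier results of these data known. The genes that fell were Rragd and Pdcd4 at 16 h, Ppp1r15a, Rheb and Pdcd4 at 1.5 d, and Ppp1r15a, Rragd and Pdcd4 at 3 d. Of the 4 eIF2 kinases, 2 rose at each time. Eif2ak2, the kinase PKR that senses double-stranded RNA, stood at 10.3, 13.3 and 8.92 CPM in NW and 21.4, 30.2 and 27.9 at 16 h, and rose by 1.29, 1.49 and 1.48 (adjusted p 0.00843, 0.00382 and 0.00459). Eif2ak1, the haem-regulated kinase, rose by 0.87, 0.89 and 0.77. In the list of eIF2 phosphatase subunits and stress response genes (7 genes), none was called at 16 h, and Ppp1r15a, the inducible phosphatase subunit GADD34, fell by 1.07 at 1.5 d and by 1.05 at 3 d (adjusted p 0.00611 and 0.00795).

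The 9 genes for hypusine, diphthamide and selenocysteine modify or assist eIF5A, eEF2 and selenoprotein synthesis, and 4 of them rose at 16 h. Among all genes 13.5% rose at that time. Dph2, of diphthamide synthesis on eEF2, stood at 4.88, 4.18 and 4.58 CPM in NW and 20.7, 31.7 and 31.0 at 16 h, and rose by 2.61 (SE 0.31, adjusted p 0.000115). Dhps and Dohh, which make the hypusine of eIF5A, rose by 0.88 and 0.98 (adjusted p 0.041 and 0.0209). Of 9 other initiation helpers 5 rose at 16 h, led by the scanning helicase Dhx29 (2.15, adjusted p 0.000406) and the ribosome recycling factor Abce1 (1.69, adjusted p 0.000445). Pdcd4, which inhibits eIF4A, fell by 1.53, by 1.17 and by 1.47 at the 3 times (adjusted p 0.00808, 0.0289 and 0.0115).

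Of 13 genes of mTORC1 and S6 kinase 4 rose at 16 h and 1, Rragd, fell by 2.48 (adjusted p 0.0308). Among all genes 13.5% rose at that time and 11.2% fell. Ddit4, an inhibitor of mTORC1, rose by 2.01 (adjusted p 0.00189) and Larp1, which binds mRNAs of the translation machinery, by 1.15 (adjusted p 0.00237). Of 7 release and recycling genes 3 rose, among them the release factor Gspt1, at 103, 93.3 and 118 CPM in NW and 299, 310 and 334 at 16 h (1.59, SE 0.18, adjusted p 8.41e-05). The poly(A)-binding genes Pabpc1 and Pabpc4 rose by 1.19 and 1.22 (adjusted p 0.0266 and 0.0339). Of 9 mitochondrial translation factors Gfm1 and Tufm rose at 16 h, by 1.57 and 1.15 (adjusted p 0.000152 and 0.00316). None of the 2 MNK kinase genes, whose products phosphorylate eIF4E, was called at any time. For 3 d against 16 h 7 partners fell and none rose, among them Dph2 by 1.75 and Gfm1 by 1.09. In that comparison 3.67% of all genes fell.

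The 6 untested members had few or no counts. Eif4e1b was listed at 0 in all 12 libraries, which allows at most 3 counts in each. Eif3j1 and Eif3j2 were also at 0, but 99.9 and 100% of their exon bases are shared with each other or with Spg11, and Eef1akmt4-ece2 shares 100% with Ece2 and Eef1akmt4. Fragments in exons of several genes were not counted, so that these zeros give no level. Eif4a3l1 had 4 counts in all, and Eif2c5, a symbol that only the naming rule brings in, had 8 counts, all in NW replicate 3. Just inside the filter were Eef1a2 with 54 counts in all, Eef1akmt3 with 297 and Eif4ebp3 with 752. Eef1a2, the form of eEF1A known from muscle and neurons, had 0 counts in all NW and 1.5 d libraries. It stood at 0.0667, 0 and 0.436 CPM at 16 h and 0.407, 1.10 and 0.0723 at 3 d, and no fold is given for it.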

How the data were processed

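The values are counts of fragments per gene, deposited by the authors without normalization. Per the file headers, the authors counted read pairs with featureCounts 2.0.0 over the exons of refGene (mm10), with no option for strand, multi-mapping or overlap, so that fragments shared by several genes or places were left out. STAR, SAMtools, Subread and Partek are named in the submitters' processing notes without versions. Libraries were full-length cDNA of unstranded type, per the labels' protocols.

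All 14901 genes that passed filterByExpr were fitted by group over the 12 libraries with TMM scaling in edgeR 4.0.16 (R 4.3.3), and p-values were adjusted over all of them by Benjamini-Hochberg. SEs are approximate, being the log2 change over the square root of F. TMM-normalised CPM are used for levels, as mean ± SD with n = 3. Alternatives were DESeq2 1.42.0, limma-voom (limma 3.58.1), other scalings and filters, a keratinocyte covariate, a replicate block, the 2 groups alone and leaving out each library. The procedure was tested on simulated counts. Members and lists were chosen with earlier results of these data known. Values per library are given for a role panel of 35 members and for the up to 8 largest rises and falls of each comparison, and for other members a range, with up to 4 called partners per list by smallest p. Promoter windows are from the RefSeq table of GRCm38.p6. Protein sequences were not used here.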

Additional observations from a re-analysis of the deposited data

How the results depend on the processing

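At 16 h against NW, 8 members were called under each alternative run: Eif2b3, Eif2s1, Eif3b, Eif3c, Eif3d, Eif3l, Eif4g1 and Eef1d. Eif2b3 was the 1 member so called for 3 d against 16 h, and none was at 1.5 d or 3 d against NW. No called member changed sign. With the keratinocyte share as a covariate 9 members were called at 16 h, 0 at 1.5 d, 0 at 3 d and 4 for any difference, where the main numbers were 19, 19, 10 and 21. The members' median log2 changes under it were 0.64, 0.39 and 0.10, where the main ones were 0.64, 0.33 and 0.07, and the genes called among all 14901 numbered 1868, 600 and 526, where the main numbers were 3687, 3647 and 3147. With the length score as a covariate, added after the data were seen, the members called were 41, 29, 20 and 41. There were 9 for 1.5 d against 16 h and 24 for 3 d against 16 h. Of all genes 31.8, 33.0, 25.6, 40, 8.31 and 17.9% were called in turn. Without the 4 libraries that stood apart 1 and 9 members were called for these last comparisons, beside 1.57 and 8.40% of all genes. DESeq2 called 4 and 10 members there, beside 1192 of 14581 and 2352 of 14870 genes. The members' share was below that of all genes in the first and near it in the second. EdgeR called 0 and 4 members, beside 426 and 1420 of 14901 genes. Scaling by library totals gave 5 members at 3 d, beside 3052 of 14901 genes, and 11 for 3 d against 16 h. In the latter it turned the split of all genes from 873 higher and 547 lower to 703 and 971. With no filter on low counts 1 member was called for 3 d against 16 h, beside 1275 of 19745 genes. The replicate numbers did not pair the samples (2 of 18 same-number correlations were over 0.1, the range being -0.17 to 0.17). A replicate block left 17 members called at 16 h and 13 at 1.5 d, beside 3030 and 3062 of 14901 genes. It left 4 members at 3 d, 1 for 3 d against 16 h and 9 for any difference, beside 2580, 1014 and 3487 genes. Fits of the 2 groups alone left 22 of 61 members at 16 h, beside 3452 of 13734 genes. At 1.5 d they left 13 of 61, beside 3184 of 13969 genes. They left 4 members at 3 d and 1 for 3 d against 16 h, beside 2671 of 13956 and 1383 of 13800 genes. At 1.5 d the members' share was near that of all genes under the block and below it with the 2 groups alone. Leaving out 1 library at a time gave 13 to 25 members called at 16 h, 11 to 19 at 1.5 d and 2 to 11 at 3 d. Among all genes these fits gave 2249 to 3773, 2392 to 3802 and 1826 to 3269 calls. For 1.5 d against 16 h they gave 0 to 1 members and 147 to 433 genes. For 3 d against 16 h they gave 1 to 8 members and 726 to 1515 genes. For any difference they gave 8 to 23 members and 3348 to 4323 genes. The cause of these changes was not tested. The smallest change called against NW was 0.57, that of Eif3l at 3 d.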

Other observations

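With the length score as a covariate, an alternative chosen after the data were seen, 31.8% of all genes were called at 16 h. Under it 22 members were called at 16 h in addition to the 19 above. They were Eif1ax, Eif5, Eif6, Eif2s2, Eif2b1, Eif2b4, Eif2a, Eif3a, Eif3g, Eif3i, Eif3m, Eif4a1, Eif4a2, Eif4a3, Eif4h, Eif4e2, Eif4e3, Eif4g3, Eif4ebp1, Eef1e1, Eef1akmt1 and Eef2kmt. Under this fit Eif4a1 had a log2 change of 1.02 (adjusted p 0.000574), Eif3i 1.26 (adjusted p 0.000161), Eif2s2 0.89 (adjusted p 0.00326) and Eif6 0.68 (adjusted p 0.00515), all by edgeR. Eif4a2 had -0.44 (adjusted p 0.0466). Without the 4 libraries that stood apart, Eif4a1, Eif3i, Eif2s2, Eif6 and Eif4a2 were also among the 11 members added at 16 h, and Eif2s3x and Eef1aknmt were lost. For 3 d against 16 h the covariate added 20 members, among them Eif4a1 (-0.88, adjusted p 0.00225) and Eif4a2 (-0.68, adjusted p 0.00983). Of all genes 17.9% were called in that fit.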
